A study of Mus musculus with 6 samples.

Results

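A set of 10 immediate early transcription factor genes was followed in RNA sequencing libraries of mouse inguinal fat, a white depot under the skin. The 10 members, Fos, Fosb, Fosl2, Jun, Junb, Egr1, Nr4a1, Nr4a2, Nr4a3 and Klf6, were taken by gene ID from a table of 24415 gene IDs, and all 10 passed the filter on low counts. The libraries came from 3 mice labelled Hsp20 KO and 3 WT mice, all 12 weeks old, on a C57BL/6 background and not fasted, with 1 library per mouse. Hsp20 is a small heat shock protein encoded by Hspb6. The labels give neither the knockout allele and the cells it acts in, nor the sex of the mice, nor the hour of sampling.

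Immediate early genes are switched on within minutes of a stimulus without new protein synthesis, through factors such as CREB and SRF that already sit in the cell. FOS and JUN proteins pair to form AP-1, which drives genes of inflammation, matrix turnover and growth, and EGR1 and KLF6 are zinc finger factors. The NR4A proteins are orphan nuclear receptors that respond to adrenergic and cyclic AMP signals in fat. Their transcripts are short-lived, so levels in tissue also depend on how an animal was handled.

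The libraries labelled Hsp20 KO held between 14078936 and 27937060 counts and the WT libraries between 26146472 and 32648746. Hspb6 had 8.86, 1.51 and 3.94 CPM (counts scaled to a common library size by TMM factors) in the libraries labelled KO replicates 1 to 3, against 12.6, 9.43 and 8.95 CPM in WT replicates 1 to 3. In this gene the library labelled KO replicate 1 thus lay just below the WT range, which goes against its label. On the main axis of variation over all tested genes (first principal component of log2 CPM, 51.6% of variance), the WT libraries lay at 29.8, 27.2 and 32.2. The libraries labelled KO replicates 1 to 3 lay at -17.3, -37 and -35. Replicate 1 was thus on the side of the others labelled KO, and why its Hspb6 level differed was not tested. The log2 change of Hspb6 was -1.08 ± 0.51 over all 6 libraries (SE, edgeR adjusted p = 0.227) and -1.99 ± 0.38 without that library (edgeR adjusted p = 0.0221). Each direction given here compares all 3 libraries labelled KO with WT, and the called genes named below are also given without replicate 1. Adipocyte markers defined the tissue in both groups, with a summed level of 12033 to 17118 CPM in the libraries labelled KO and 16229 to 18067 CPM in WT for 6 genes.

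Of the 10 factors, 1 rose and 3 fell in the libraries labelled KO (edgeR quasi-likelihood test, Benjamini-Hochberg adjusted p under 0.05 over 15994 genes). Nr4a1 rose 1.73-fold, while Nr4a3, Fosl2 and Klf6 fell to 0.437, 0.573 and 0.732 of the WT level. Over all tested genes 4.23% were called higher and 3.42% lower, 7.65% in all. Without KO replicate 1 the same 4 factors passed, where 10.3% of tested genes did and 4.52% were lower, and they passed with limma-voom, where 7.29% of genes did. The groups did not overlap for these 4 factors, 1 above and 3 below WT, against 16.9% and 15.6% of all tested genes, 32.5% in all. Jun, Junb, Fos, Fosb, Egr1 and Nr4a2 did not pass, and their groups overlapped. The median log2 change of the 10 was -0.41, beside 0.00 over all tested genes.

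**Figure D1:**
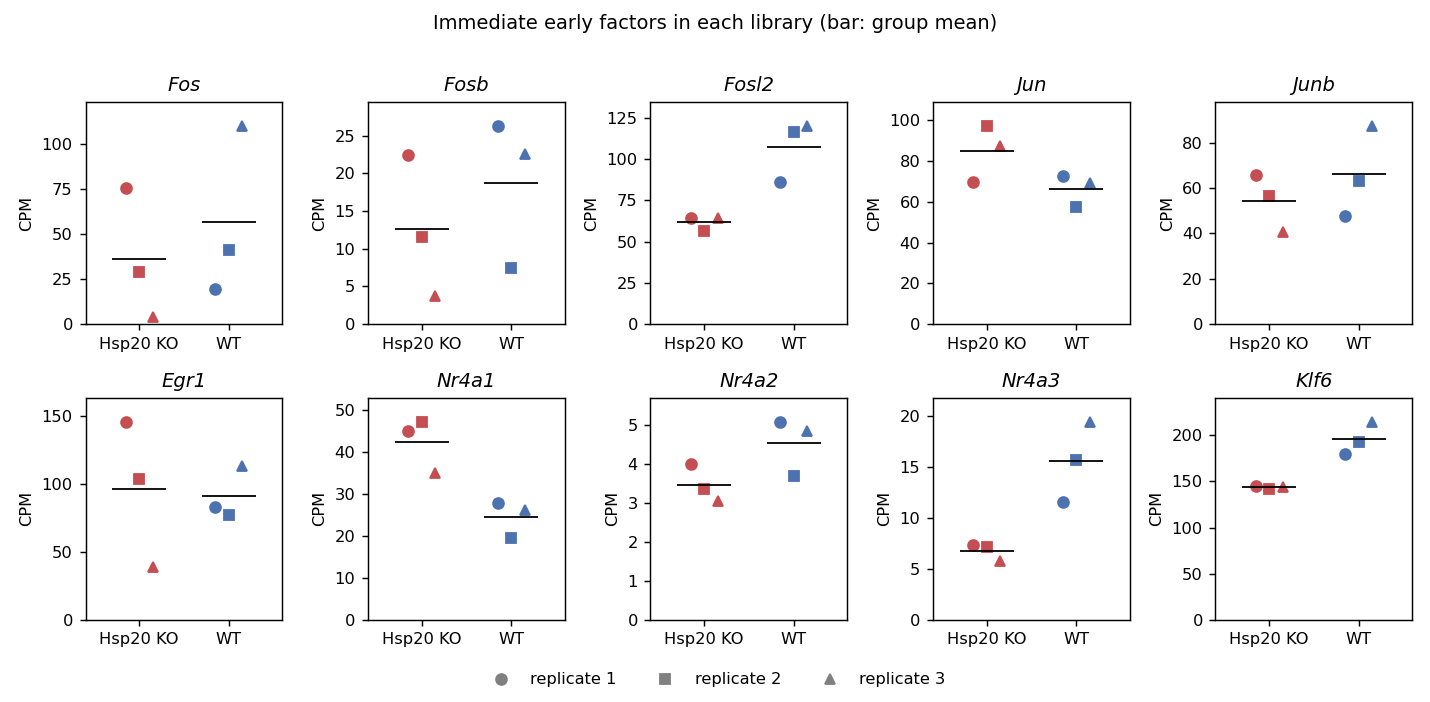
Level of each factor in CPM (vertical axes, starting at 0) in the libraries labelled Hsp20 KO (red, left) and WT (blue, right), with replicates by symbol and group means as bars. The groups separate for Nr4a1, Nr4a3, Fosl2 and Klf6, and Fos, Fosb and Egr1 spread widely within the libraries labelled KO.

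Within the NR4A receptors the 3 genes did not move together. Nr4a1 (NUR77; gene ID 15370, chromosome 15, 101253902 to 101274795 on GRCm38.p6, plus strand) had 45.0, 47.2 and 34.9 CPM in the libraries labelled KO replicates 1 to 3, against 27.9, 19.5 and 26.2 CPM in WT replicates 1 to 3. Every library labelled KO, replicate 1 included, lay above every WT library. The means were 42.4 ± 6.57 CPM in the libraries labelled KO and 24.6 ± 4.43 CPM in WT (SD, n = 3 each), and the fitted log2 change was 0.79 ± 0.16 (SE, edgeR adjusted p = 0.0314). Without KO replicate 1 the log2 change was 0.75 (edgeR adjusted p = 0.0468). The call was lost without KO replicate 2 (edgeR adjusted p = 0.0734) and without WT replicate 1 (0.0546), 2 (0.0927) or 3 (0.108), with log2 changes over all 6 omissions from 0.65 to 0.92.

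Nr4a3 (NOR1; gene ID 18124, chromosome 4, 48045078 to 48086447, plus strand) went the other way. It had 7.34, 7.19 and 5.79 CPM in the libraries labelled KO, against 11.6, 15.7 and 19.5 CPM in WT. The highest KO value lay below the lowest WT value, and the WT libraries spread more. The means were 6.77 ± 0.853 CPM in the libraries labelled KO and 15.6 ± 3.93 CPM in WT (SD, n = 3 each), and the log2 change was -1.19 ± 0.20 (SE, edgeR adjusted p = 0.0181). Without KO replicate 1 it was -1.25 (edgeR adjusted p = 0.0226), and the call was lost without KO replicate 3 (0.0525) or WT replicate 2 (0.0776) or 3 (0.0715). The raw counts behind these values were 203, 157 and 78 in the libraries labelled KO and 299, 481 and 644 in WT.

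Nr4a2 (NURR1; gene ID 18227, chromosome 2, 57106830 to 57124003, minus strand) was the least abundant of the 10 per transcript length. It had 3.98, 3.34 and 3.04 CPM in the libraries labelled KO, against 5.08, 3.69 and 4.84 CPM in WT, and the groups overlapped. Its log2 change was -0.38 ± 0.19 (SE, edgeR adjusted p = 0.245).

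Dividing CPM by the length of the longest RefSeq-linked GENCODE transcript, 2477 bases for Nr4a1, 3568 for Nr4a2 and 5720 for Nr4a3, allows the levels of the receptors to be set side by side. Nr4a1 made up 88.3%, 89.7% and 88.3% of the summed NR4A level in the libraries labelled KO replicates 1 to 3, against 76.6%, 67.6% and 69.0% in WT replicates 1 to 3. Nr4a3 made up 6.24%, 5.91% and 6.35% in the libraries labelled KO and 13.8%, 23.5% and 22.2% in WT. The level per length of Nr4a1 was 14.2, 15.2 and 13.9 times that of Nr4a3 in the libraries labelled KO, against 5.56, 2.88 and 3.11 times in WT. The 3 libraries labelled KO lay close to each other in this ratio, KO replicate 1 among them, and apart from WT. Among the FOS genes, Fos made up 69.4%, 54.0% and 14.8% of the summed level in the libraries labelled KO and 31.3%, 49.7% and 68.0% in WT, so the groups overlapped. These shares restate the changes of the members and were given no test.

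**Figure D2:**
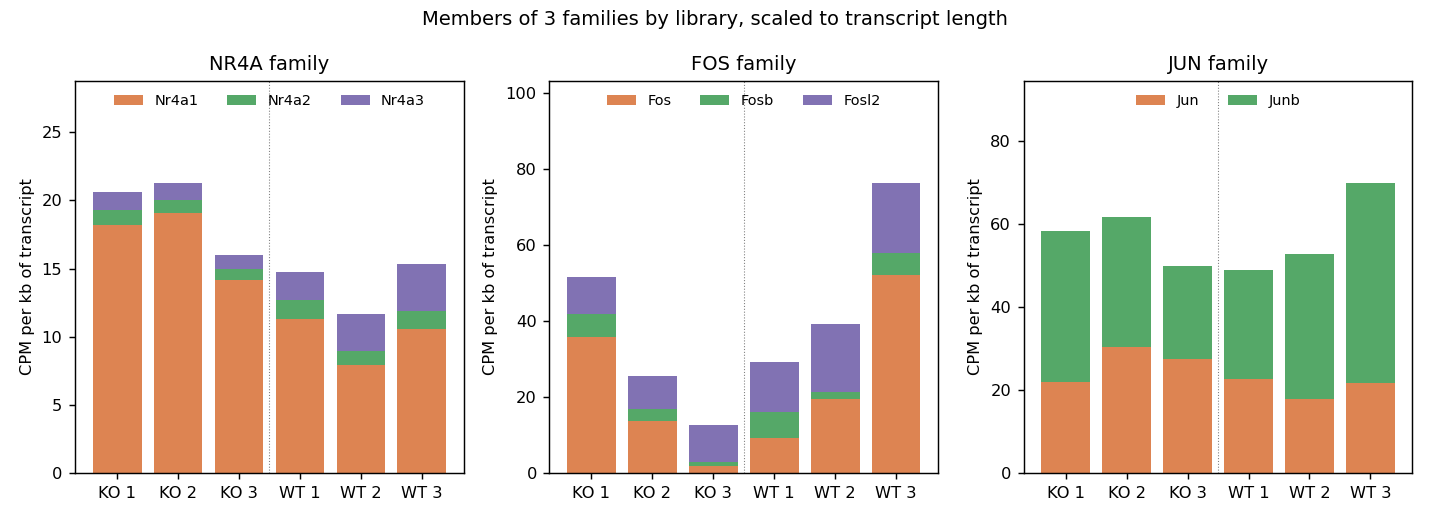
Stacked level in CPM per kb of transcript (vertical axis) of the NR4A, FOS and JUN genes in each library, those labelled KO left of WT. Nr4a1 fills more of the NR4A bar in each library labelled KO (88.3% or more) than in each WT library (76.6% or less), while the Fos part of the FOS bar varies within both groups.

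Upstream sequence is shown for the NR4A genes, of which 1 rose and 1 fell, and for Fos, which varied most between mice. RefSeq promoter windows on GRCm38.p6 (250 bases before to 50 after the start) matched 9 of the 10 members. The windows were searched on both strands for TGACGTCA (the full cyclic AMP response element), TGACGTAA, TGACTCA (the AP-1 site), the CArG box bound by SRF, TATAAA (the TATA box) and GCGGGGGCG (the EGR1 site). A shorter core of the cyclic AMP element, TGACG, which lies within TGACGTCA and TGACGTAA, was added after the windows had been read. This core or its reverse complement stands in capitals, and each line holds the 250 bases upstream of the start, 5′ to 3′ on the gene's strand. For Nr4a1 and Nr4a3 the RefSeq start lies inside the gene's outer bounds. The lines cover chr15:101266596-101266845 (plus strand), chr2:57124004-57124253 (minus strand), chr4:48045055-48045304 (plus strand) and chr12:85473640-85473889 (plus strand).
Nr4a1: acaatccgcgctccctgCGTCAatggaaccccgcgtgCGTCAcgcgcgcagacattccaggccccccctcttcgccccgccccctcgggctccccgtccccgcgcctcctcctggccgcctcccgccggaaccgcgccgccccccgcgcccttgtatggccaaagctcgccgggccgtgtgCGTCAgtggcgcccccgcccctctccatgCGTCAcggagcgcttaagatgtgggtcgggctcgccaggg
Nr4a2: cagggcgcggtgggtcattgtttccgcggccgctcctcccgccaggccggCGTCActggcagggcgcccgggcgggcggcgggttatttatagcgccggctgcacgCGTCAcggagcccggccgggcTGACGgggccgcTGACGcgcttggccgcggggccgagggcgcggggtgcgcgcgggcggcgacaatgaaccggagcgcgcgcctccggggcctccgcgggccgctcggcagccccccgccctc
Nr4a3: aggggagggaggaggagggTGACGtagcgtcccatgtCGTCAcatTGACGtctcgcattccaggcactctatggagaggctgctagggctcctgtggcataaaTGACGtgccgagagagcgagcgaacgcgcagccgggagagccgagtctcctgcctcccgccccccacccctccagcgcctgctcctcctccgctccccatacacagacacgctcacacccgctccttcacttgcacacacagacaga
Fos: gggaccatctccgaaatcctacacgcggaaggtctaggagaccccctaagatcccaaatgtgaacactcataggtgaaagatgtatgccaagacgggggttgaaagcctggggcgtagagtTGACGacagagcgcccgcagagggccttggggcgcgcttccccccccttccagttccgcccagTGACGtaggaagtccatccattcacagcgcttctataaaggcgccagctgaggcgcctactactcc

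Each of the 3 NR4A windows held 4 copies of TGACG on either strand, and Fos held 2 copies. Of 32851 mouse promoter windows, 0.231% held 4 or more. That share cannot show enrichment, because the core was added after these windows had been read and 4 is the number they held. Fosb and Junb held 1 copy, Fosl2, Klf6 and Jun held 0, and 20.8% of all windows held at least 1. TGACGTCA, TGACGTAA, TGACTCA and the CArG box matched none of the 9 windows, against 1.79%, 0.499%, 5.20% and 1.63% of all windows. Sequence beyond 250 bases upstream was not searched, nor was Egr1, which had no matched window. These results therefore cannot show that the genes lack such sites. GCGGGGGCG matched Nr4a1, Fosl2 and Fosb once each, against 2.91% of all windows. TATAAA matched Fos, Nr4a2 and Junb, against 13.6% of all windows. Nr4a1 and Nr4a3 differed in direction with the same number of TGACG copies, and a match is not a measure of binding.

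Among the FOS genes, Fosl2 fell and the others did not pass. Fosl2 (FRA2; gene ID 14284, chromosome 5, 32136472 to 32157840, plus strand), an AP-1 partner without the strong activation region of FOS, had 64.2, 56.5 and 64.1 CPM in the libraries labelled KO, against 85.9, 116 and 120 CPM in WT. All 3 libraries labelled KO lay below WT and within 1.14-fold of each other. The means were 61.6 ± 4.43 CPM in the libraries labelled KO and 107 ± 18.7 CPM in WT (SD, n = 3 each), and the fitted log2 change was -0.80 ± 0.13 (SE, edgeR adjusted p = 0.0177). Without KO replicate 1 it was -0.83 (edgeR adjusted p = 0.0226), and the call was lost without WT replicate 2 (0.0817) or 3 (0.0838).

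Fos (gene ID 14281, chromosome 12, 85473890 to 85477274, plus strand) was the most variable member. It had 75.5, 28.9 and 3.94 CPM in the libraries labelled KO, from 2089, 632 and 53 counts, against 19.3, 41.0 and 110 CPM in WT. The highest library labelled KO held 19.2 times the level of the lowest, and the highest WT library 5.68 times. The groups shared the range of 19.3 to 75.5 CPM, and the lowest library labelled KO lay below every WT library. The log2 change was -0.62 ± 0.89 (SE, edgeR adjusted p = 0.704). It was -1.73 ± 0.89 without KO replicate 1 (edgeR adjusted p = 0.264) and 0.28 without WT replicate 3 (0.904). Fosb (gene ID 14282, chromosome 7, 19302696 to 19310118, minus strand), whose gene lies 11.2 Mb from Hspb6, had 22.5, 11.5 and 3.71 CPM in the libraries labelled KO, against 26.3, 7.44 and 22.6 CPM in WT. Its log2 change was -0.54 ± 0.61 (SE, edgeR adjusted p = 0.627), with 1 low library in each group.

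The JUN genes did not pass. Jun (gene ID 16476, chromosome 4, 95049036 to 95052222, minus strand), the most common partner of FOS, had 69.8, 97.2 and 87.3 CPM in the libraries labelled KO, against 72.5, 57.2 and 69.3 CPM in WT. KO replicate 1 lay within the WT range and the other two libraries labelled KO above it. The log2 change was 0.35 ± 0.14 (SE, edgeR adjusted p = 0.163), or 0.48 ± 0.12 without KO replicate 1 (edgeR adjusted p = 0.0511). Junb (gene ID 16477, chromosome 8, 84976909 to 84978748, minus strand), a weaker activator that can oppose JUN, had 65.9, 56.6 and 40.5 CPM in the libraries labelled KO, against 47.6, 63.2 and 87.4 CPM in WT. The groups overlapped, with a log2 change of -0.28 ± 0.24 (SE, edgeR adjusted p = 0.515).

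Of the zinc finger factors, Klf6 fell and Egr1 did not pass. Klf6 (gene ID 23849, chromosome 13, 5861489 to 5870393, plus strand), which in mouse preadipocytes is known to favour fat cell differentiation by repressing Dlk1, had 145, 142 and 144 CPM in the libraries labelled KO, against 180, 193 and 215 CPM in WT. The 3 libraries labelled KO differed by 1.02-fold at most, a within-group SD of log2 CPM which only 0.556% of tested genes undercut, and all lay below WT. The log2 change was -0.45 ± 0.09 (SE, edgeR adjusted p = 0.0268), and -0.45 without KO replicate 1 (edgeR adjusted p = 0.0361). The call was lost without KO replicate 2 (edgeR adjusted p = 0.0607) or 3 (0.059) and without WT replicate 2 (0.0958) or 3 (0.115). Egr1 (gene ID 13653, chromosome 18, 34861207 to 34864956, plus strand) had 146, 104 and 38.9 CPM in the libraries labelled KO, against 83.0, 77.0 and 113 CPM in WT. One library labelled KO lay above the WT range, 1 inside it and 1 below it, and the log2 change was 0.09 ± 0.40 (SE, edgeR adjusted p = 0.906).

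**Figure D3:**
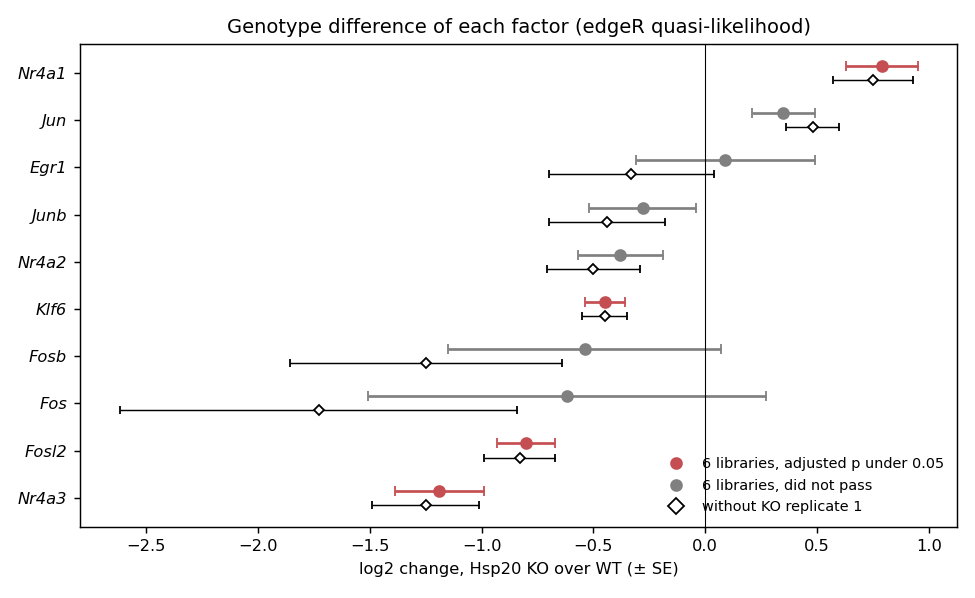
Log2 change of each factor (horizontal axis, libraries labelled Hsp20 KO over WT, bars ± SE), from all 6 libraries (filled, red where it passed) and without KO replicate 1 (open). The 4 factors that passed kept nearly the same estimate without that library, while Fos and Fosb shifted to -1.73 and -1.25.

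The spread between mice differed widely among the members. In the libraries labelled KO the SD of log2 CPM was 2.16 for Fos, 1.30 for Fosb and 0.99 for Egr1, above 99.9%, 99.4% and 98.6% of tested genes. In WT it was 1.25 for Fos and 0.99 for Fosb, above 99.7% and 99.4% of tested genes, and 0.29 for Egr1, above 85.5%. The medians over all tested genes were 0.17 in the libraries labelled KO and 0.12 in WT. Fos, Fosb, Egr1 and Junb were each highest in KO replicate 1 and lowest in KO replicate 3 among the libraries labelled KO, as were Nr4a2 and Nr4a3, 6 of the 10, beside 13.0% of all tested genes. KO replicate 3 is also the smallest library, with 14078936 counts, and KO replicate 1 the largest labelled KO. The part of library size in these levels was not tested.

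**Figure D4:**
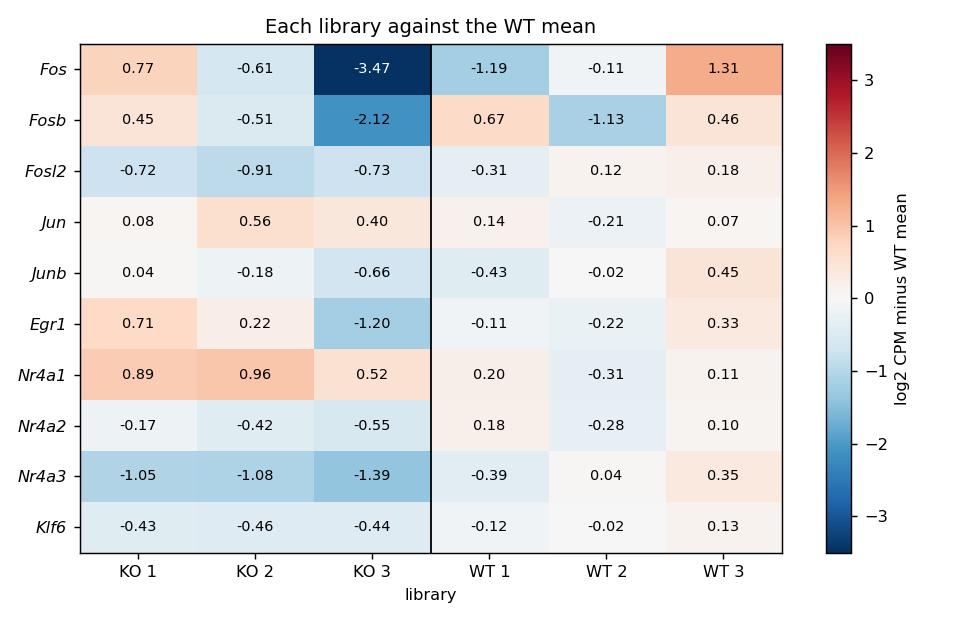
Log2 CPM of each factor in each library minus the WT mean (colour and printed value), with the libraries labelled KO left of WT. Nr4a1 is above 0 and Nr4a3, Fosl2 and Klf6 are below 0 in all 3 libraries labelled KO, while Fos runs from 0.77 to -3.47 among them.

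Per transcript length Klf6 was the most abundant member on average in both groups, at 34.0 ± 0.296 CPM per kb in the libraries labelled KO and 46.4 ± 4.14 in WT (SD, n = 3 each). In the libraries labelled KO the order went on with Egr1, Junb, Jun, Fos, Nr4a1, Fosl2, Fosb, Nr4a3 and Nr4a2. In WT it went on with Junb, Egr1, Fos, Jun, Fosl2, Nr4a1, Fosb, Nr4a3 and Nr4a2. Most neighbours in these orders overlapped between libraries. In the libraries labelled KO, Nr4a1 (17.1 ± 2.65 CPM per kb) stood apart above Fosl2 (9.42 ± 0.678) and Fosl2 above Fosb. In WT, Fosl2 (16.4 ± 2.87) stood apart above Nr4a1 (9.92 ± 1.79), Nr4a1 above Fosb and Nr4a3 above Nr4a2. Nr4a1 and Fosl2 therefore held opposite ranks in the 2 groups, in every library.

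The genes with profiles nearest to the 4 called members were found by the root mean square difference of centred log2 CPM over the 6 libraries, among 12138 genes with a mean of at least 5 CPM. Nearest to Nr4a1 were Il7, Ptger3 and Snrpn (0.116, 0.145 and 0.148), and nearest to Nr4a3 were Rab7b, Ifi211 and Glis3 (0.111, 0.138 and 0.159). Casp4, Rell1 and Mir100hg lay nearest to Fosl2 (0.0485, 0.0627 and 0.0767), and Lcmt2, Prkx and Ehd1 to Klf6 (0.0338, 0.0439 and 0.0451).

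Other genes of the immediate early response were described by role: 58 of 59 further factors and feedback genes passed the filter, of which 2 rose and 4 fell (edgeR). Over all tested genes edgeR called 4.23% higher and 3.42% lower. The median log2 change of the 58 was -0.21, beside 0.00 over all tested genes. They had 45 negative and 13 positive estimates, against 7984 negative and 8010 positive among all 15994. Among 11 AP-1 and ATF genes, Jdp2, a repressor of AP-1, fell to 0.505 of WT (13.6 ± 4.05 CPM in the libraries labelled KO and 26.7 ± 4.74 CPM in WT, SD, n = 3 each, edgeR adjusted p = 0.0397). Jund and Mafk did not pass (log2 change -0.14 and -0.03). Among 12 EGR, KLF and MYC genes, Bhlhe40, a clock-linked repressor, rose 2.42-fold (94.1 ± 13.6 CPM in the libraries labelled KO and 38.8 ± 5.62 CPM in WT, SD, n = 3 each), and Klf9, a glucocorticoid-induced factor, fell to 0.564 of WT (edgeR adjusted p = 0.00534 and 0.0127). Klf4 and Klf2 did not pass (log2 change -0.62 and -0.21). Among 35 response and feedback genes, Dusp4, a nuclear MAP kinase phosphatase, rose 2.06-fold, while Socs3, an inhibitor of cytokine signalling, and the GTPase Rhob fell to 0.263 and 0.662 of WT. Socs3 spread from 26.7 to 92.9 CPM in WT, and Mcl1 and Zfp36l2 did not pass.

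All of these calls but that of Bhlhe40 were lost in at least 1 omission of a single library. Over the 6 omissions the log2 changes kept their sign. They ran from -0.91 to -0.73 for Klf9, 0.86 to 1.21 for Dusp4 and -1.20 to -0.80 for Jdp2. For Socs3 they ran from -2.30 to -1.61, and for Rhob from -0.71 to -0.49. Without KO replicate 1, 2 or 3 edgeR called 2 of the 58 higher each time, and 7, 1 or 3 lower. Leaving out WT replicate 1, 2 or 3 left 1 higher each time, and 7, 0 or 0 lower. Of all tested genes 676 were called higher and 547 lower over all 6 libraries. Without KO replicate 1, 2 or 3 these counts were 941, 325 or 327 higher and 730, 287 or 266 lower. Without WT replicate 1, 2 or 3 they were 325, 79 or 75 higher and 329, 58 or 53 lower. For WT replicate 2 or 3, 14 of the 58 had an unadjusted edgeR p under 0.05 and were lower, beside 10.2% or 8.74% of all genes tested then. Bhlhe40 passed in all 6 omissions (edgeR adjusted p from 0.00526 to 0.0439). Klf9 was lost without WT replicate 2 (0.0617) or 3 (0.0588), and Dusp4 without WT replicate 1 (0.0587), 2 (0.0929) or 3 (0.0514). With KO replicate 1 omitted, the log2 change was 1.24 for Bhlhe40, -0.83 for Klf9, 1.09 for Dusp4, -0.97 for Jdp2, -2.14 for Socs3 and -0.71 for Rhob (edgeR adjusted p = 0.00526, 0.0175, 0.023, 0.0645, 0.0444 and 0.0172). Jdp2 passed only without KO replicate 3 (0.0291) or WT replicate 1 (0.0426, otherwise up to 0.151), Socs3 only without KO replicate 1 (0.0444) or WT replicate 1 (0.0112, otherwise up to 0.142), and Rhob only without KO replicate 1 (0.0172, otherwise up to 0.152).

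Of 31 upstream regulators, the kinases, receptors and coactivators that switch these genes on, 1 rose and 1 fell. The same edgeR test called 4.23% of all tested genes higher and 3.42% lower. Prkaca, the catalytic subunit of protein kinase A, rose 1.41-fold (224 ± 11.9 CPM in the libraries labelled KO and 159 ± 9.10 CPM in WT, SD, n = 3 each, edgeR adjusted p = 0.0177). Rps6ka3, the growth factor kinase RSK2, fell to 0.776 of WT (edgeR adjusted p = 0.0309). Adrb3, the beta-adrenergic receptor of fat cells, had a log2 change of -0.29 ± 0.17 (SE, edgeR adjusted p = 0.32). None of the 31 (0) passed in edgeR once WT replicate 1, 2 or 3 was left out. Of all genes tested then, 325, 79 or 75 were called higher and 329, 58 or 53 lower. Counting unadjusted p under 0.05 instead, 3, 2 or 2 of the 31 were higher, beside 11.8%, 10% or 9.34% of all genes. By the same count 3, 2 or 1 of the 31 were lower, beside 11.1%, 10.2% or 8.74% of all genes. Prkaca then had an adjusted p of 0.0546, 0.0664 or 0.107, and Rps6ka3 of 0.0615, 0.1 or 0.126. Rps6ka3 was also lost without KO replicate 2 (0.0614). Over all 6 omissions the log2 change was 0.47 to 0.54 for Prkaca and -0.39 to -0.32 for Rps6ka3. Both passed without KO replicate 1, with log2 changes of 0.54 for Prkaca and -0.32 for Rps6ka3 (edgeR adjusted p = 0.0129 and 0.0492).

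Genes that AP-1 is known to activate in other settings were lower where they changed. Of 20 listed, 16 were tested, with a median log2 change of -0.67. In edgeR 5 fell and 0 rose, where 3.42% of all tested genes fell and 4.23% rose. By unadjusted edgeR p under 0.05 there were 9 lower and 0 higher, where 12.7% of all tested genes were lower and 13.3% higher. DESeq2 called 8 lower and 0 higher, where it called 6.41% of all genes lower and 7.10% higher. With limma-voom 3 were lower and 0 higher, where 7.29% of all genes were called in either direction. Ccl2, a chemokine for monocytes, had 3.15, 4.17 and 2.75 CPM in the libraries labelled KO, against 13.3, 17.3 and 29.8 CPM in WT (log2 change -2.57 ± 0.32 SE, edgeR adjusted p = 0.00776). Leaving out KO replicate 1, the log2 change was -2.51 for Ccl2, -1.65 for Mmp9, -2.21 for Il1b and -1.25 for Timp1 (edgeR adjusted p = 0.0115, 0.00208, 0.0302 and 0.0343). Mmp9, a gelatinase, fell to 0.376, the cytokine Il1b to 0.257 and the protease inhibitor Timp1 to 0.469 of WT, while Vegfa and Mmp14 did not pass. Mmp9 was lost without WT replicate 2 (0.0565), and Il1b and Timp1 passed only without KO replicate 1 or WT replicate 1 (otherwise 0.0749 to 0.115 and 0.0921 to 0.136). The number lower was 7, 3 or 2 when KO replicate 1, 2 or 3 was omitted, and 6, 1 or 2 for WT replicate 1, 2 or 3, among the 17 to 19 genes that then passed the filter. Of all genes tested then, 730, 287 or 266, and 329, 58 or 53, were called lower, against 547 over all 6 libraries. Without KO replicate 1, 1 gene was also called higher. Of 14 metabolic and thermogenic genes linked to NR4A receptors in muscle or fat, 6 rose and 0 fell in edgeR, against 4.23% and 3.42% of all tested genes. The median log2 change of the 14 was 0.45. In WT replicates 1 to 3 Pygm had 45.5, 7.83 and 8.86 CPM, and Eno3 40.5, 18.8 and 18.1 CPM. Pfkm had 52.1, 25.1 and 27.5 CPM there, and Ppargc1a 13.1, 6.59 and 5.77 CPM. None of these genes was called. WT replicate 1 also had the highest summed level of skeletal muscle markers, 685 CPM. The part of that library in the median was not tested. By unadjusted edgeR p under 0.05 there were 9 higher and 0 lower, against 13.3% and 12.7% of all tested genes. DESeq2 gave 8 and 0, against 7.10% and 6.41%, and limma-voom 5 and 0, against 7.29% in either direction. The genes called higher in edgeR included Ucp1, the uncoupling protein of thermogenic fat (19.1, 165 and 308 CPM in the libraries labelled KO, against 2.64, 1.76 and 1.06 CPM in WT). Cidea, a lipid droplet protein (5.79-fold), and Fbp2, a fructose bisphosphatase (6.27-fold), were also called, while Srebf1 and Lpin1 did not pass. The number higher was 7, 5 or 4 when KO replicate 1, 2 or 3 was omitted, and 6, 1 or 1 for WT replicate 1, 2 or 3. Of all genes tested then, 941, 325 or 327, and 325, 79 or 75, were called higher, against 676 over all 6 libraries. At an unadjusted edgeR p under 0.05, 11, 8 or 7 of the 14 were higher without WT replicate 1, 2 or 3. At that level 0, 1 or 1 were lower. Of all genes 11.8%, 10% or 9.34% were then higher and 11.1%, 10.2% or 8.74% lower. The log2 change without KO replicate 1 was 7.05 for Ucp1, 2.82 for Cidea and 2.95 for Fbp2, against 6.51, 2.53 and 2.65 over all 6 libraries (edgeR adjusted p without it = 0.000394, 0.000219 and 0.00108). Cidea passed in all 6 omissions, while Ucp1 and Fbp2 were lost without WT replicate 2 (0.0786 and 0.0585) or 3 (0.0843 and 0.0544).

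**Figure D5:**
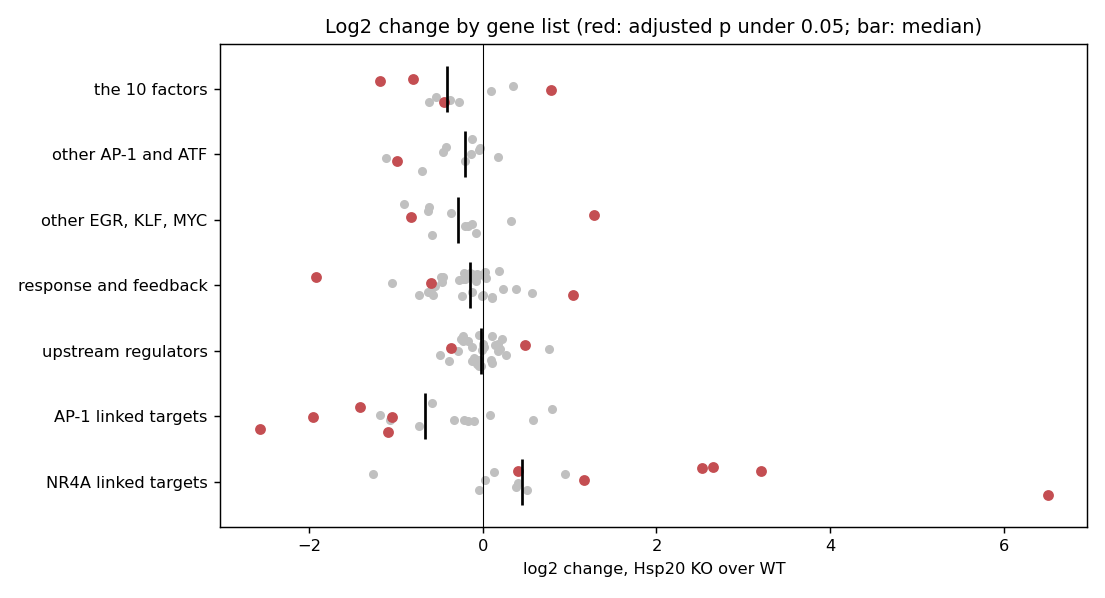
Log2 change of each tested gene (horizontal axis, libraries labelled Hsp20 KO over WT) by gene list, with calls in red and list medians as bars. The 10 factors and the AP-1 linked genes have medians of -0.41 and -0.67, the upstream regulators -0.02, and the NR4A linked genes 0.45.

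Other groups of genes moved with these calls, and in bulk tissue fewer cells of a type and less RNA per cell cannot be told apart. Over all tested genes edgeR called 4.23% higher and 3.42% lower. At an unadjusted edgeR p under 0.05, 13.3% were higher and 12.7% lower. Of 5 neutrophil markers with a gene ID, 4 were tested and 2 fell, Csf3r and Cxcr2, with a summed level of 46.2 to 54.0 CPM in the libraries labelled KO and 78.5 to 87.6 CPM in WT. S100a8 and S100a9 did not pass (edgeR adjusted p = 0.0567 and 0.0664) and had at most 5.12 and 6.72 CPM in any library. The sum thus came mainly from Csf3r and Cxcr2, at 17.2 to 34.9 and 27.0 to 44.5 CPM over the 6 libraries. Of 6 red blood cell markers 5 fell, with sums of 2621 to 3177 CPM in the libraries labelled KO and 5851 to 6739 CPM in WT, and of 6 smooth muscle markers 1 fell, Cnn1, with sums of 345 to 365 CPM in the libraries labelled KO and 392 to 431 CPM in WT. Macrophage markers had 0 calls among 6 (edgeR, 3 lower at an unadjusted p under 0.05), with sums of 550 to 870 CPM in the libraries labelled KO and 863 to 932 CPM in WT. Of the 6, 3 were called lower without KO replicate 1, Adgre1, Mrc1 and Cd163 (edgeR adjusted p = 0.00698, 0.0323 and 0.0368), and without KO replicate 2, 1 was. All 6 red blood cell markers were lower without KO replicate 1, and 3 were without WT replicate 2 or 3. Csf3r and Cxcr2 had log2 changes of -0.72 and -0.58 without KO replicate 1 (edgeR adjusted p = 0.0195 and 0.0112). Csf3r was lost without KO replicate 2 (edgeR adjusted p = 0.0582) or 3 (0.0601) or WT replicate 2 (0.0766) or 3 (0.0944), Cxcr2 without WT replicate 3 (0.0548), and Cnn1 in each of the 6 omissions (0.0501 to 0.145). Skeletal muscle markers summed to 48.8 to 78.8 CPM in the libraries labelled KO and to 685, 74.2 and 99.2 CPM in WT replicates 1 to 3, so WT replicate 1 stood apart. B cell markers had 0 calls among 6, with sums of 411, 800 and 400 CPM in KO replicates 1 to 3 and 620 to 654 CPM in WT. All 6 were called lower without KO replicate 2 (edgeR). Progenitor markers had 0 calls among 6, and 2 lower without KO replicate 1. Their sums were 2858 to 5256 CPM in the libraries labelled KO and 3428 to 4100 CPM in WT. None of these marker genes was at 0 in a whole group. Of 12 stress genes linked to tissue handling 1 fell, Ddit4, and 0 rose (edgeR, 2 higher at an unadjusted p under 0.05). Ddit4 passed only without KO replicate 1 (0.0365) or WT replicate 1 (0.0467), with a log2 change of -0.64 without KO replicate 1, and otherwise had 0.112 to 0.15. Hspa8 had 1044, 1204 and 1006 CPM in the libraries labelled KO and 1107, 1296 and 1735 CPM in WT. Of 17 clock genes 10 rose and 4 fell, among them Dbp (6.58-fold) and Npas2 (0.148 of WT), which passed in all 6 omissions. Their log2 changes without KO replicate 1 were 2.66 and -2.78 (edgeR adjusted p = 0.00129 and 0.00635). Omitting single libraries gave 7 to 11 clock genes higher and 2 to 4 lower, with 7 and 3 without WT replicate 2 and 7 and 2 without WT replicate 3. In these last 2 fits only 79 or 75 of all tested genes were called higher and 58 or 53 lower. The part of blood cells, handling and clock phase in the levels of the 10 factors was not tested.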

How the data were processed

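Per the labels, total RNA was prepared with a lipid tissue kit and made into standard Illumina libraries. TopHat, DESeq, CASAVA 1.8 and bcl2fastq, with GRCm38 and mm10 as builds, are listed in the submitters' processing notes. For the counter, annotation and strandedness, nothing is stated there or in the labels. The authors deposited raw read counts per gene, 1 column per mouse. Each column was tied to its mouse through the sample name given in the labels, and 24334 of 24415 gene IDs to symbols through RefSeq GRCm38.p6.

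All genes were fitted with edgeR 4.0.16 in R 4.3.3 (filterByExpr, minimum count 10 and total 15, TMM, quasi-likelihood test, genotype as the only term). Each SE is the log2 change divided by the root of its F statistic. CPM uses TMM-scaled totals, and log2 CPM a prior count of 2. Lengths are of GENCODE vM21 transcripts. Libraries of a group differed by more than sampling noise (chi-square over its degrees of freedom 18.2 or more). Members and lists were chosen with earlier results of these data known. Named genes were the 10 members, Hspb6, up to 4 called and 2 other genes per list, and the 3 nearest profiles per called member, and not every gene this rule takes is printed. Alternatives were DESeq2 1.42.0, limma-voom 3.58.1, other normalizations, filters, dispersions and thresholds, a replicate block and leaving out each library.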

Additional observations from a re-analysis of the deposited data

How the results depend on the processing

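The 4 calls among the 10 factors held with DESeq2 size factors, upper quartile normalization, no filter, a filter of 1 CPM in 3 libraries, robust dispersions, DESeq2 and limma-voom. Leaving out single libraries gave 0 to 1 factors higher, 0 to 3 lower, 75 to 941 genes higher, 53 to 730 lower, 1 to 2 and 0 to 7 of the other immediate early genes higher and lower, 0 to 2 upstream regulators called, and an Hspb6 log2 change of -1.99 to -0.64. Where no factor was called, 1 was higher and 3 or 4 were lower at an unadjusted p under 0.05 (edgeR). These were the fits without WT replicate 2 or 3. There 10% or 9.34% of all tested genes were higher and 10.2% or 8.74% lower at that level.

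No filter gave 9 other immediate early genes lower, against 4. DESeq2 called 1135 genes higher, 1024 lower and 16 other immediate early genes lower. A threshold of 0.1 gave 1250, 1126 and 15. Same-numbered replicates share only a number (correlations of deviations of -0.038, 0.0917 and -0.0957, and 1 of 3 libraries labelled KO correlated best with its own number). With a replicate block 226 genes were higher and 169 lower, 2 other immediate early genes were lower and 0 upstream regulators were called. With that block 0 factors were called higher and 0 lower. At an unadjusted edgeR p under 0.05, 1 factor was higher and 3 were lower, beside 12% and 12.1% of all tested genes. Egr1, which was not called, had log2 changes of -0.09 with limma-voom, -0.05 with the block, and -0.33 to 0.47 with libraries left out, and Fos had -1.73 without KO replicate 1 and 0.28 without WT replicate 3. The cause of these shifts was not tested. Nr4a2 had the fewest counts of the members, 41 in the smallest library.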
